A study of Mus musculus with 12 samples.

Results

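RNA helicases of the DEAD-box (Ddx) and DEAH-box (Dhx) families were examined in murine G1E-ER4 erythroblasts, as transcript levels and as splicing events of their own transcripts. Genes were taken by symbol, as Ddx or Dhx followed by a digit, without pseudogenes and antisense transcripts, which gave 53 genes of 56748 in the count table and 72 events of 19323 in the splicing table. The samples were 3 libraries of Sf3b1 K700E/+ cells and 3 libraries of Sf3b1 +/+ cells, each after 24 h of estradiol. G1E-ER4 proerythroblasts lack their own GATA1 and express a fusion of GATA1 with the estrogen receptor. Estradiol thereby switches on erythroid maturation in both genotypes, but the study reports that fewer K700E/+ than +/+ cells differentiated after induction. Genotype and stage of maturation cannot be told apart in these libraries. The mutation was introduced with CRISPR-Cas9, and the wild-type cells went through the same editing, hygromycin selection and removal of the cassette. Each genotype is 1 clone, so a difference between genotypes cannot be told apart from a difference between clones. The labels name no separate culture for each library, so the p-values reflect library-to-library spread, which may be technical.

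DEAD-box and DEAH-box proteins use ATP to open short RNA duplexes, to strip proteins from RNA or to clamp onto it. Different members act at nearly every step of the life of an RNA, and the spliceosome passes from one helicase to the next as it assembles, cuts, joins and falls apart. SF3B1, a subunit of the U2 small nuclear ribonucleoprotein that recognises the branch point, touches several of them. DDX46, the ortholog of yeast Prp5, acts on the SF3b complex, DDX42 also binds it, and DHX15 is activated by G-patch proteins such as SUGP1, whose contact with SF3B1 is known to be weakened by mutations such as K700E. Mutant SF3B1 is known in human cells for using cryptic acceptors upstream of the annotated ones.

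The depth was 44045337 to 50077827 counts in K700E/+ libraries and 38785471 to 40702174 counts in +/+ libraries. Sf3b1 itself had 756, 766 and 742 CPM (counts scaled to a common library size) in K700E/+ and 741, 738 and 763 CPM in +/+ libraries (log2 fold change 0.01 ± 0.05, adjusted p = 0.858), and gene counts cannot read the point mutation. Gata1, read from all transcripts that carry its sequence, had 322, 323 and 315 CPM in K700E/+ and 149, 175 and 155 CPM in +/+ libraries. It was higher in K700E/+ cells (log2 fold change 1.00 ± 0.07, adjusted p = 9.43e-06), and its part in the helicase values was not tested. Of 13 erythroid markers 12 were in the table, and all 12 were expressed, with summed levels of 9462 to 15366 CPM in K700E/+ and 11359 to 15729 CPM in +/+ libraries. Replicate 1 stood apart from replicates 2 and 3 in both genotypes, so the counts of calls below are also given without both replicate 1 libraries, a choice made after seeing the data. Levels are CPM on library sizes scaled by TMM, or CPM per kilobase of exon (RPKM) where genes are compared with each other. A gene was called at an adjusted p under 0.05 in edgeR's quasi-likelihood test with Benjamini-Hochberg adjustment over 12547 genes, and a DEG also needed an absolute log2 fold change over 1.

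Most helicases were abundant transcripts in both genotypes, and 46 of the 49 that passed the filter on low counts had a mean above 4 RPKM. Ddx5, a co-regulator of transcription and splicing, was the highest, at 190.5 ± 12.7 RPKM in K700E/+ and 208 ± 5.05 RPKM in +/+ cells (SD, n = 3 each). Ddx3x, an X-linked factor of translation initiation, followed with 128 ± 15.9 and 99.2 ± 12.8 RPKM. In +/+ libraries Ddx5 lay above Ddx3x without overlap, whereas Ddx3x overlapped with its next neighbour, Ddx39a. The mRNA export helicases Ddx39b and Ddx39a came next in both genotypes. Ddx39b had 96.1 ± 0.928 RPKM in K700E/+ and 79.3 ± 3.00 RPKM in +/+ cells. Its paralog Ddx39a had 84.5 ± 0.310 RPKM in K700E/+ and 93.3 ± 7.93 RPKM in +/+ cells. The paralogs thus stood in opposite order in the K700E/+ and +/+ cells, a description for which no test was run.

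**Figure D1:**
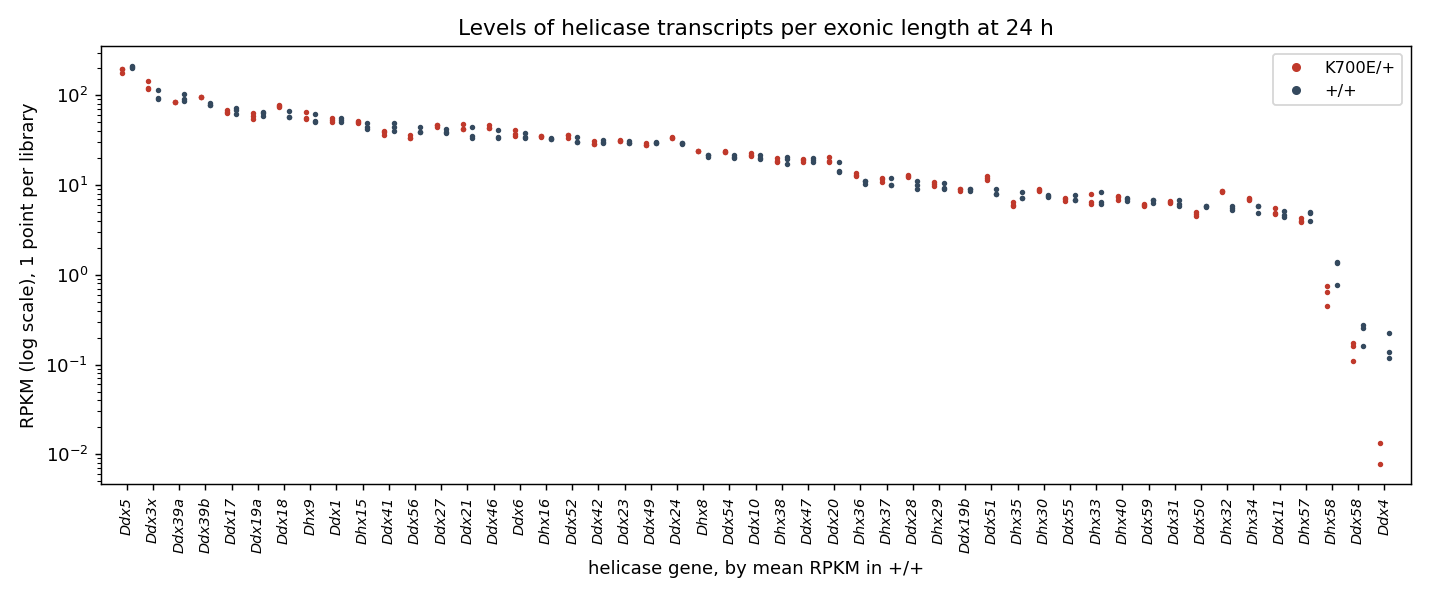
Levels of the 49 tested helicases as RPKM on a log scale, 1 point per library, with K700E/+ libraries left of +/+ libraries for each gene and genes ordered by their mean in +/+. From Ddx5 to Dhx57 all means lay above 4 RPKM, and Dhx58, Ddx58 and Ddx4 lay below 2 RPKM, where the K700E/+ library of Ddx4 with no read is not drawn.

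At the low end were Dhx58, Ddx58 and Ddx4, all below 2 RPKM. The other 4 helicases did not pass the filter. Ddx25, a testis helicase, had 5 reads over the K700E/+ libraries and 2 reads over the +/+ libraries. Ddx43, a germline helicase, Ddx60, an interferon-induced gene, and Ddx3y, the Y-linked copy of Ddx3x, had no read in any library, which allows up to 0.0701 CPM in a K700E/+ library and up to 0.0756 CPM in a +/+ library, as 3 counts of the total and for counting error only. The other Y-linked genes examined, Uty, Kdm5d and Eif2s3y, were also at 0 in all 6 libraries. The line is described as male in the study, and whether these cells hold a Y chromosome was not tested.

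The helicases were called about as often as all genes, mostly with small fold changes. Of the 49 tested, 15 were higher and 6 lower in Sf3b1 K700E/+ cells and 28 were not called. That is 42.9% called, against 44.4% of all 12547 genes. The direction differed more than the total, with 30.6% of helicases called higher against 21.3% of all genes, and 12.2% called lower against 23.1%. The median log2 fold change was 0.09 over the helicases and -0.01 over all genes tested. Of all genes 10.3% were DEGs, and of the helicases only Ddx4, which passed the filter through its reads in +/+ libraries alone, so that its call as a DEG and as 1 of the 6 lower helicases says nothing of the family. The CPM of the genotypes did not overlap for 25 helicases (51.0%, against 54.3% of all genes). With the replicate number as a block, 18 helicases were higher (27.7% of all genes were) and 8 lower (29.2% of all genes were). Calls lost below in a fit without 1 library were all kept with the block (adjusted p = 6.17e-05 to 0.00936). Without both replicate 1 libraries, 19 helicases were higher and 8 lower. Fewer were called higher with library totals alone (10), without replicate 2 of +/+ (9) and without replicate 3 of +/+ (8), and fewer lower without replicate 2 or 3 of K700E/+ (3 each). With only replicate 1 of +/+ left out, Dhx15, Dhx37, Dhx57, Ddx21, Ddx52 and Ddx58 were called in addition (adjusted p = 0.00208 to 0.0348). The share of all genes called was taken for the main fit and the block only, so the counts under the other fits cannot be set against all genes. No test of the family against other genes was run, and the shares are given as a description.

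**Figure D2:**
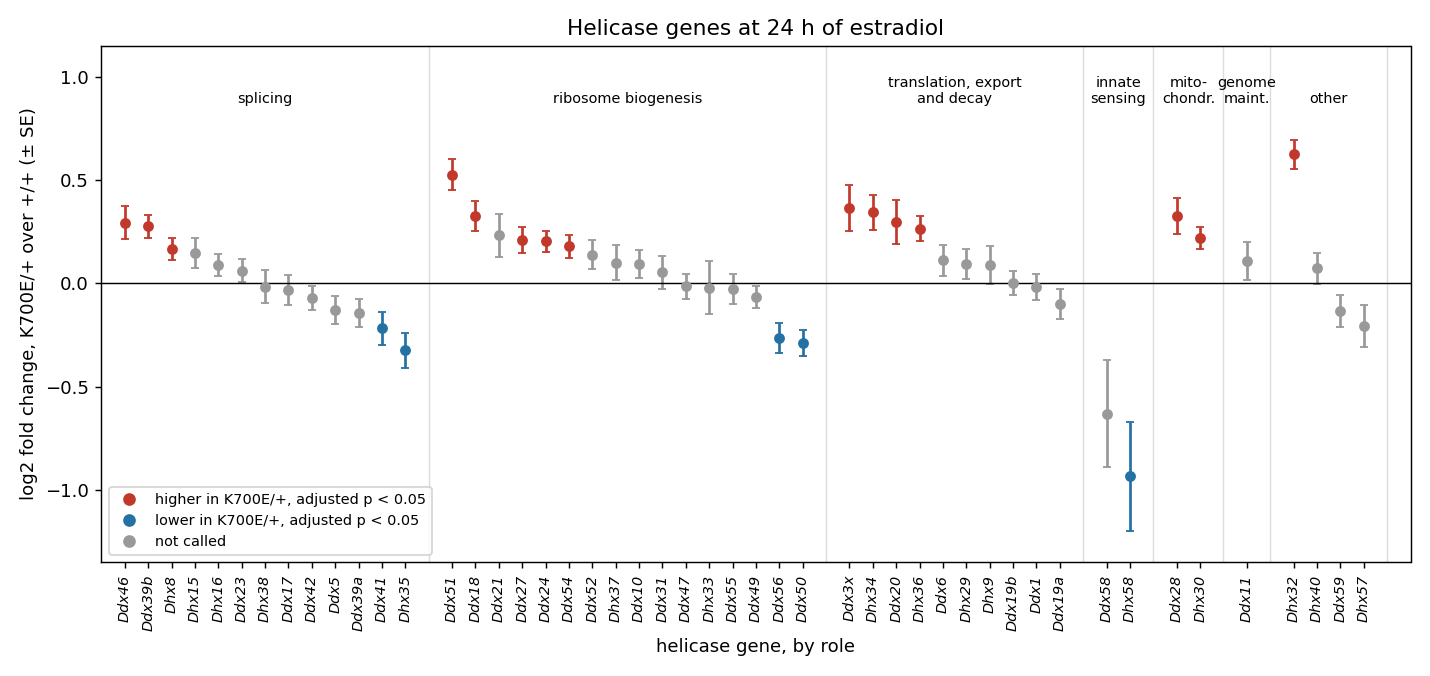
Log2 fold changes of K700E/+ over +/+ cells with their standard errors, for 48 of the 49 tested helicases grouped by role (red, called higher in K700E/+; blue, called lower; grey, not called). Of the 15 red points 13 lay below 0.37, and of the blue points only Dhx58 lay below -0.33; Ddx4, at -4.31, is off the scale and not drawn.

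Splicing helicases included members called in either direction. Of 13, 3 were higher (Ddx46, Ddx39b and Dhx8), 2 were lower (Dhx35 and Ddx41) and 8 were not called, with a median log2 fold change of -0.02. That is 38.5% called, against 44.4% of all genes. Ddx46 had 343, 315 and 317 CPM in K700E/+ libraries and 296, 247 and 252 CPM in +/+ libraries. Every K700E/+ library lay above every +/+ library, although the highest +/+ library, replicate 1, came close to the lower K700E/+ ones (log2 fold change 0.29 ± 0.08, adjusted p = 0.0148). Without replicate 2 or without replicate 3 of +/+ the call of Ddx46 was lost (adjusted p = 0.054 and 0.0605). Ddx42, the other helicase that binds SF3b, had 129.8, 120.1 and 122 CPM in K700E/+ and 136, 129 and 126 CPM in +/+ libraries. Its libraries overlapped between the genotypes (log2 fold change -0.07 ± 0.06, adjusted p = 0.362).

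Ddx39b, also called UAP56, helps U2 onto the branch point and later loads the export machinery onto the mRNA. Its levels were 364, 367 and 359.8 CPM in K700E/+ libraries and 313, 293 and 294 CPM in +/+ libraries. The K700E/+ libraries were nearly identical and all above the +/+ libraries (log2 fold change 0.28 ± 0.05, adjusted p = 0.00299). Its paralog Ddx39a had 438, 435 and 435 CPM in K700E/+ and 527, 466 and 449.6 CPM in +/+ libraries. Here every K700E/+ library lay below every +/+ library, but the +/+ libraries were spread widely (log2 fold change -0.14 ± 0.07, adjusted p = 0.122, and 0.0454 with the replicate number as a block). Ddx39a overlaps the gene Adgre5 on the opposite strand over 895 exonic nucleotides in GENCODE M21, and the paralogs are similar in sequence. How the authors' counting used strand is not given in the sources used here, so reads of such pairs may have been shared.

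Of Ddx23, Dhx16, Dhx38, Dhx8 and Dhx15, which drive later steps, only Dhx8 was called. Ddx23, the ortholog of yeast Prp28 that releases U1, had 193, 192 and 199.9 CPM in K700E/+ and 195, 183 and 182 CPM in +/+ libraries. Dhx16, the ortholog of Prp2 that readies the spliceosome for the first cut, had 140.2, 145 and 145 CPM in K700E/+ and 134, 138 and 133 CPM in +/+ libraries. Dhx38, the ortholog of Prp16 that acts between the catalytic steps, had 92.4, 90.7 and 99.3 CPM in K700E/+ and 85.2, 103 and 96.8 CPM in +/+ libraries. Of these, only Dhx16 had libraries that did not overlap, and its log2 fold change was 0.09 ± 0.05 (adjusted p = 0.199); Ddx23 stood at 0.06 ± 0.06 (adjusted p = 0.402) and Dhx38 at -0.02 ± 0.08 (adjusted p = 0.889). Dhx8, the ortholog of Prp22 that releases the joined mRNA, had 122, 122 and 119.5 CPM in K700E/+ and 109.6, 110.3 and 104 CPM in +/+ libraries. It was higher in K700E/+ cells by a small margin (log2 fold change 0.17 ± 0.05, adjusted p = 0.0329), a call lost in all fits without 1 library but that without replicate 1 of +/+, at log2 fold changes of 0.14 to 0.19. Dhx15, the ortholog of Prp43 that takes the spliceosome apart, had 442, 424 and 414 CPM in K700E/+ and 423, 358 and 376 CPM in +/+ libraries. Replicate 1 of +/+ lay within the range of the K700E/+ libraries (log2 fold change 0.15 ± 0.07, adjusted p = 0.129, and 0.0262 with the block).

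Dhx35 and Ddx41 were the lower ones of this group. Dhx35 had 33.5, 29.8 and 30.9 CPM in K700E/+ libraries and 43.7, 37.5 and 36.9 CPM in +/+ libraries. All K700E/+ libraries lay below all +/+ libraries (log2 fold change -0.32 ± 0.09, adjusted p = 0.0137), and the call was lost without replicate 2 or without replicate 3 of K700E/+ (adjusted p = 0.0637 and 0.0502). Ddx41, a gene mutated in familial myeloid neoplasms, had 96.2, 104 and 108 CPM in K700E/+ and 109, 131 and 119 CPM in +/+ libraries. The highest K700E/+ library and the lowest +/+ library were almost equal. Its call stood at the threshold (log2 fold change -0.22 ± 0.08, adjusted p = 0.0486, and 0.00425 with the block). It was lost in all fits without 1 library but that without replicate 1 of +/+. It was also lost under DESeq2's Wald test, DESeq2 size factors, upper quartile scaling, no filter and the study's filter (adjusted p = 0.0523 to 0.0689). An antisense transcript overlaps 467 of its exonic nucleotides. Ddx5 had 1139, 1146 and 1016 CPM in K700E/+ and 1231, 1202 and 1173 CPM in +/+ libraries, without overlap (log2 fold change -0.13 ± 0.07, adjusted p = 0.152). Its paralog Ddx17 had 495, 491 and 530.5 CPM in K700E/+ and 475, 520.5 and 555 CPM in +/+ libraries, with full overlap (log2 fold change -0.03 ± 0.07, adjusted p = 0.745).

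**Figure D3:**
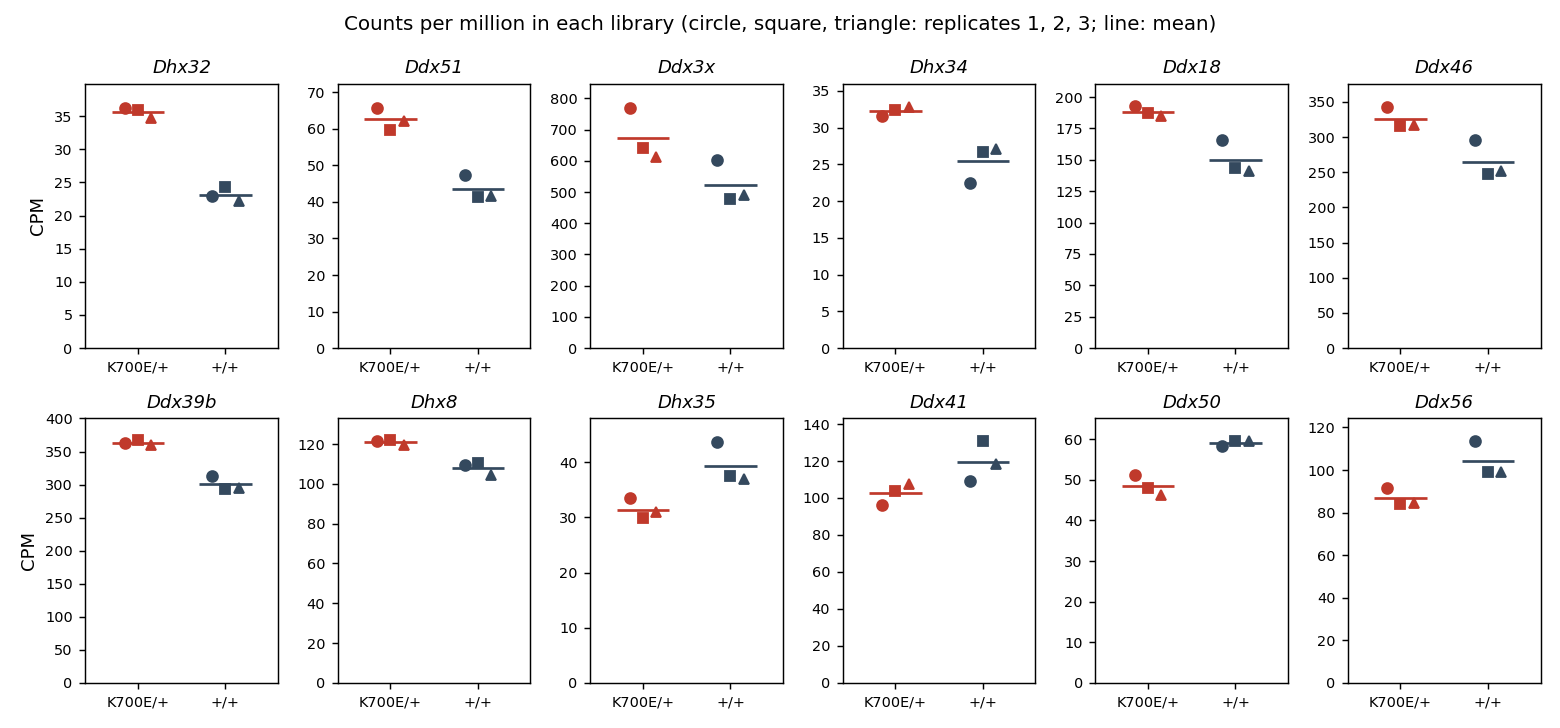
CPM of 12 helicases in each library, with K700E/+ left of +/+, the mean as a line, 1 symbol for each replicate number, and axes that start at 0. In the 8 panels from Dhx32 to Dhx8 all K700E/+ points lay above all +/+ points, and in the panels of Dhx35, Ddx41, Ddx50 and Ddx56 all lay below.

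Helicases of ribosome biogenesis open the base pairs between small nucleolar RNAs and the growing ribosomal RNA and remodel it as it folds. Of 16 tested, 5 were higher (Ddx51, Ddx18, Ddx27, Ddx24 and Ddx54), 2 were lower (Ddx56 and Ddx50) and 9 were not called, with a median log2 fold change of 0.10. That is 43.8% called, against 44.4% of all genes. Ddx51, which acts on the large subunit, had 65.8, 59.8 and 62.2 CPM in K700E/+ and 47.5, 41.4 and 41.6 CPM in +/+ libraries. The genotypes were far apart for this gene (log2 fold change 0.53 ± 0.07, adjusted p = 0.000488). Ddx18, also of the large subunit, had 193, 188 and 185 CPM in K700E/+ and 166, 144 and 141 CPM in +/+ libraries, again without overlap (log2 fold change 0.33 ± 0.07, adjusted p = 0.00514). Ddx27, Ddx24 and Ddx54 were higher by log2 fold changes of 0.21, 0.20 and 0.18 (adjusted p = 0.0215, 0.0104 and 0.0253). An antisense transcript overlaps 869 exonic nucleotides of Ddx54. Ddx24 kept its call in every fit without 1 library, whereas Ddx27 lost it without replicate 2 or 3 of either genotype (highest adjusted p = 0.0829) and Ddx54 in all such fits but that without replicate 1 of +/+ (highest adjusted p = 0.0927). The nucleolar helicase Ddx21, which links transcription and processing of ribosomal RNA, overlapped between the genotypes through replicate 1 of +/+, at 248, 217 and 218 CPM in K700E/+ and 227, 181 and 174 CPM in +/+ libraries. It was not called without the block (log2 fold change 0.23 ± 0.10, adjusted p = 0.0982) and was called with it (adjusted p = 0.00201), as was Ddx52 of the small subunit (adjusted p = 0.145 without and 0.0326 with the block).

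Ddx50, the paralog of Ddx21 that lies beside it on chromosome 10, was lower, with 51.3, 47.9 and 46.2 CPM in K700E/+ and 58.3, 59.6 and 59.7 CPM in +/+ libraries. The +/+ libraries were tightly grouped and all above the K700E/+ libraries (log2 fold change -0.29 ± 0.06, adjusted p = 0.00487). Ddx56, which acts late on the large subunit, had 91.7, 84.0 and 84.3 CPM in K700E/+ and 114, 99.3 and 99.2 CPM in +/+ libraries. It was lower without overlap (log2 fold change -0.26 ± 0.07, adjusted p = 0.0166), with the call lost without replicate 2 or without replicate 3 of K700E/+ (adjusted p = 0.0744 and 0.0665). The 9 members of this group that were not called had log2 fold changes between -0.06 and 0.23.

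In the group of translation, export and decay, which took in Ddx20, 4 of 10 were higher and none lower, with a median log2 fold change of 0.10. Of all genes 21.3% were higher and 23.1% lower. Roles were assigned with earlier results known, and the export helicases Ddx39b and Ddx39a were counted under splicing. Ddx3x had 770.1, 640.1 and 614 CPM in K700E/+ libraries and 601, 477 and 492 CPM in +/+ libraries. Replicate 1 was the highest in both genotypes, and the lowest K700E/+ library was just above the highest +/+ library (log2 fold change 0.37 ± 0.11, adjusted p = 0.0242). The call was lost in 3 fits without 1 library, which were those without replicate 1 of K700E/+ and without replicate 2 or replicate 3 of +/+ (adjusted p = 0.0683, 0.0785 and 0.0883). Dhx34, which promotes nonsense-mediated decay with UPF1, had 31.6, 32.3 and 32.8 CPM in K700E/+ and 22.5, 26.6 and 27.1 CPM in +/+ libraries. The genotypes did not overlap (log2 fold change 0.35 ± 0.08, adjusted p = 0.00963). Ddx20, also called Gemin3, belongs to the SMN complex that assembles spliceosomal snRNPs, and had 86.0, 74.5 and 76.4 CPM in K700E/+ and 75.6, 58.0 and 59.3 CPM in +/+ libraries. It was the only called helicase whose libraries overlapped, through replicate 1 of +/+, and its call was at the threshold (log2 fold change 0.30 ± 0.11, adjusted p = 0.0489, and 0.000564 with the block) and lost in all fits without 1 library but that without replicate 1 of +/+. Dhx36, which resolves G-quadruplexes, was higher by 0.27 ± 0.06 (adjusted p = 0.00607). The others, which were Ddx6 of mRNA repression, Dhx29 of initiation, Dhx9, Ddx1 and the export helicases Ddx19a and Ddx19b, had log2 fold changes between -0.10 and 0.11, and none was called. The close paralogs Ddx19a and Ddx19b may share reads.

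Both mitochondrial helicases were higher, where 21.3% of all genes were. Ddx28, which takes part in assembly of the large mitochondrial ribosomal subunit, had 28.1, 28.6 and 29.1 CPM in K700E/+ and 25.2, 22.7 and 20.5 CPM in +/+ libraries. All K700E/+ libraries lay above (log2 fold change 0.33 ± 0.09, adjusted p = 0.0144), and without replicate 3 of +/+ the adjusted p was 0.0522. Dhx30, which acts in the same assembly, was higher by 0.22 ± 0.05 (adjusted p = 0.00936). The largest rise of any helicase was that of Dhx32, with 36.2, 35.9 and 34.7 CPM in K700E/+ and 22.9, 24.2 and 22.1 CPM in +/+ libraries. Each genotype was tight and the gap between them wide (log2 fold change 0.62 ± 0.07, adjusted p = 0.000121). Dhx32 shares 204 exonic nucleotides with Bccip on the opposite strand. Ddx11, a DNA helicase of sister chromatid cohesion, was at 37.0, 31.9 and 32.3 CPM in K700E/+ and 34.3, 28.8 and 30.8 CPM in +/+ libraries, which overlapped (log2 fold change 0.11 ± 0.09, adjusted p = 0.368).

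The cytosolic sensors of viral RNA were expressed at low levels, and 1 of the tested sensors, Dhx58, was lower in K700E/+ cells. Dhx58, also called LGP2, had 1.48, 2.45 and 2.13 CPM in K700E/+ libraries and 2.55, 4.59 and 4.40 CPM in +/+ libraries. The lowest library of each genotype was replicate 1, and no K700E/+ library reached the +/+ range (log2 fold change -0.93 ± 0.26, adjusted p = 0.0178). The call was lost in 3 fits without 1 library, which were those without replicate 1 of K700E/+ and without replicate 2 or replicate 3 of +/+ (adjusted p = 0.0532, 0.0684 and 0.067). Ddx58, also called RIG-I, had 0.778, 1.14 and 1.24 CPM in K700E/+ and 1.13, 1.93 and 1.80 CPM in +/+ libraries. The ranges overlapped at replicate 1 of +/+ (log2 fold change -0.63 ± 0.26, adjusted p = 0.0768), and the gene was called with the block (adjusted p = 0.0108). Ifih1, the other sensor of that family but no member by symbol, was lower as well (log2 fold change -0.60 ± 0.13, adjusted p = 0.00499).

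Ddx4, the germline helicase Vasa, had 2, 0 and 1 reads in K700E/+ libraries and 14, 28 and 17 reads in +/+ libraries. By reads per library size it was 22.3-fold lower in K700E/+ cells, with a 95% interval of 7.28-fold to 111-fold that covers counting error only. The gene passed the filter on low counts through the +/+ libraries alone, so the ratio is given as a description with no test. Its level was low in +/+ cells as well, at 0.485 ± 0.175 CPM (SD, n = 3). The summed level of 10 granulocyte and macrophage markers was 1.22 to 1.67 CPM in K700E/+ and 6.60 to 14.1 CPM in +/+ libraries. Only 2 of the 10 passed the filter on low counts, and Elane and S100a8 were at 0 in all libraries. The sum of 5 mast cell, basophil and eosinophil markers was 0.678 to 1.66 CPM in K700E/+ and 8.72 to 31.8 CPM in +/+ libraries. Of the 5, 3 passed the filter, and Mcpt8 was at 0 in all libraries. The 6 lymphoid markers were at 0 in K700E/+ and summed to at most 0.0492 CPM in +/+ libraries. In bulk RNA fewer cells of a type and less RNA per cell cannot be told apart. Whether such cells were present at all, and their part in the values of Dhx58, Ddx58 and Ddx4, was not tested.

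Helicases with other names and the cofactors of DEAH-box helicases were set beside them. Of 20 helicases with other names 3 were higher and 5 lower, which is 40% called, against 44.4% of all genes. At the extremes were Ythdc2, an m6A reader (log2 fold change 0.39, adjusted p = 0.000989), and Dqx1, a DEAQ-box gene (log2 fold change -1.02, adjusted p = 0.000149). Snrnp200, the U5 helicase that unwinds U4 from U6, was lower (log2 fold change -0.44 ± 0.08, adjusted p = 0.00192). Of 21 G-patch proteins 4 were higher and 3 lower, which is 33.3% called. At the extremes were Gpatch1 (log2 fold change 0.45, adjusted p = 0.000524) and Cmtr1 (log2 fold change -0.53, adjusted p = 0.00422). Sugp1, the partner of DHX15 at SF3B1, had 60.6, 65.2 and 62.4 CPM in K700E/+ and 50.7, 54.0 and 53.8 CPM in +/+ libraries. It was higher without overlap (log2 fold change 0.25 ± 0.06, adjusted p = 0.00944). Sugp1, Snrnp200 and Ifih1 are no members and were chosen after their values were seen.

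Promoters of the helicases, from 250 bases before to 50 after the RefSeq start in GRCm38.p6, were found for 47 of the 53. The letters of an ETS core, CCGGAAGT on either strand, were in 10 of them (21.3%), against 4.0% of all 27025 promoters, in 5 of the 15 helicases called higher, 1 of 5 called lower and 4 of 23 not called. The letters AGATAA, which GATA factors bind, were in 4 of the 47 (8.51%, against 11.4% of all), and the E-box CACGTG, which overlaps neither, was in 5 (10.6%, against 7.24%), and neither was in a promoter of the 15 called higher. The 27025 promoters include those of genes not expressed here, whereas most helicases were expressed, and no share over expressed genes alone was taken. Whether the share of the ETS core is particular to helicases was thus not tested. The motifs were searched with the calls already known, matches are letters only, and no comparison between called and other helicases was tested. The matches of 4 helicases called higher are shown with the ETS core in capitals and up to 10 bases on either side, 5′ to 3′ on the strand of the gene, since the last bases of these promoter windows were found in a GENCODE M21 transcript of the gene, which those of Dhx34 were not. Their promoters lie in GRCm38.p6 at chr17:35241496-35241795 on the plus strand (Ddx39b), chr11:101732706-101733005 on the plus strand (Dhx8), chr2:167015063-167015362 on the plus strand (Ddx27) and chr9:110117567-110117866 on the minus strand (Dhx30).
Ddx39b: gagcctggaaCCGGAAGTga
Dhx8: gagcgccgacCCGGAAGTggaagctgtg
Ddx27: ctcgctacgtCCGGAAGTggctgcttct
Dhx30: ggccgctccgCCGGAAGTcccgcctgtg

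Splicing of the helicase transcripts was measured as percent spliced in (PSI), here a fraction that gives the share of the longer of the paths of an event after division by path length. Of the 72 events, 66 in 26 genes were covered by 10 or more reads (both paths together) in each library and had a single place in the genome. Some share reads, such as the 11 rows of Ddx6. An event was called at an adjusted p under 0.05 over 17657 events and an absolute PSI difference over 0.10. Only 4 were called, which is 6.06%, against 6.31% of all events tested. Of these, 2 had higher PSI in K700E/+ cells, as had 2.17% of all events, and 2 had lower PSI, as had 4.14% of all. By kind, they were 2 of 11 alternative acceptors (18.2%, against 10.5% of all such events) and 2 of 21 retained introns (9.52%, against 6.34%). Both of these retained introns lie in 1 annotated intron of Ddx39b, each with 1 unannotated site. Of 16 helicase introns with both sites annotated 0 were called, against 5.54% of all such introns. None of 17 skipped exons, 12 alternative donors or 5 composite events was called in edgeR, where 1 skipped exon and none of the others had an unadjusted p under 0.05. Limma on logit PSI called none of them either, with 2 skipped exons at an unadjusted p under 0.05. Of all events of these kinds, 5.12% of skipped exons, 3.33% of donors and 6.59% of composite events were called. The other 62 had PSI differences between -0.14 and 0.13.

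The clearest event was in Dhx37, whose product releases the U3 small nucleolar RNA during assembly of the small ribosomal subunit. A longer path used an acceptor at position 125507123 of chromosome 5 in GRCm39, 15 nt upstream of the annotated acceptor at 125507108, with the same donor at 125507883 on the minus strand. Its PSI was 0.411, 0.277 and 0.458 in K700E/+ libraries and 0 in all 3 +/+ libraries. The longer path had 43, 19 and 27 reads in K700E/+ libraries and none in +/+ libraries. The shorter path had 52, 42 and 27 reads in K700E/+ and 60, 60 and 59 reads in +/+ libraries. A count of 0 in 179 reads allows a share of up to 1.68% of reads in +/+ cells. The PSI difference was 0.38 (adjusted p = 1.62e-08) and lay between 0.34 and 0.43 in all 6 fits without 1 library. The addition of 15 nt is a multiple of 3. Its bases were not read, so whether it holds a stop codon was not tested. The Dhx37 transcript level did not pass the test (log2 fold change 0.10 ± 0.08, adjusted p = 0.366), at 59.995, 54.0 and 58.2 CPM in K700E/+ and 60.1, 50.7 and 49.8 CPM in +/+ libraries.

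The annotated junctions of the genes with called events are given as 30 bases of each exon from GENCODE M21 transcripts, with the downstream exon in capitals. They show the reading that the unaltered splicing yields, between exons 3 and 4 of 27 in Dhx37, 22 and 23 of 23 in Dhx57, and 2 and 3 of 11 in Ddx39b. All 60 bases are coding in each, and junctions were matched by gene and intron length, since the transcripts are of GRCm38.
Dhx37: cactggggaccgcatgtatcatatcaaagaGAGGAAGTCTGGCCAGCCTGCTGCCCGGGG
Dhx57: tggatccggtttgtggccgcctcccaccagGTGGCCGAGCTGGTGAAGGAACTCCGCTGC
Ddx39b: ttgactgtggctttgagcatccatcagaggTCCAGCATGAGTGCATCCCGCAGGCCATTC

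Dhx57 had a similar event at its last intron. The acceptor at 80546371 of chromosome 17 in GRCm39 lies 12 nt upstream of the annotated acceptor at 80546359, with the donor at 80549381 on the minus strand. PSI was 0.264, 0.106 and 0.162 in K700E/+ libraries and 0, 0 and 0.0566 in +/+ libraries. The genotypes did not overlap, but the longer path rested on 7, 3 and 4 reads in K700E/+ and 0, 0 and 2 reads in +/+ libraries. The difference of 0.16 was just called (adjusted p = 0.0433), and it was lost without replicate 1 or 3 of K700E/+, without replicate 1 or 2 of +/+ (highest adjusted p = 0.188) and under limma on logit PSI (adjusted p = 0.0687). Dhx57 had 25.7, 23.9 and 23.3 CPM in K700E/+ and 23.97, 30.4 and 29.7 CPM in +/+ libraries (log2 fold change -0.21 ± 0.10, adjusted p = 0.129). Another acceptor, in Dhx30 with 65 nt between annotated sites, had a PSI of 0.737, 0.855 and 0.695 in K700E/+ and 0.679, 0.604 and 0.616 in +/+ libraries. It did not overlap but was not called (difference 0.13, adjusted p = 0.0918) unless the replicate number was a block (adjusted p = 0.0425).

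Both lower events were in Ddx39b and lie side by side in 1 annotated intron of 685 nt, between exons 2 and 3. On chromosome 17 in GRCm39, the first ran from the annotated donor at 35462426 to an unannotated site at 35462706 (279 nt), and the second from an unannotated site at 35462768 to the annotated acceptor at 35463112 (343 nt). Between them is a stretch of 63 nt, a multiple of 3, bounded by sites that the table does not list as annotated. In the first, retention had a PSI of 0.428, 0.277 and 0.301 in K700E/+ and 0.853, 0.675 and 0.913 in +/+ libraries. In the second it was 0.335, 0.403 and 0.208 in K700E/+ and 0.782, 0.685 and 0.768 in +/+ libraries. The genotypes were far from overlapping in both, with differences of -0.48 (adjusted p = 0.000513) and -0.43 (adjusted p = 0.00542).

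The shorter path of these events, spliced into the 63-nt stretch, carried 11, 18 and 14 reads in K700E/+ and 2, 3 and 1 reads in +/+ libraries on the upstream side. On the downstream side it carried 12, 7 and 13 reads in K700E/+ and 2, 2 and 2 reads in +/+ libraries. The longer path, with the intron kept, had 37, 31 and 27 reads in K700E/+ and 52, 28 and 47 reads in +/+ libraries in the first event. Summed over libraries, the first event thus had 43 spliced reads in K700E/+ against 6 in +/+ cells, and 95 against 127 reads of the kept intron. Neither path counts transcripts in which the whole annotated intron was removed, so the PSI is not a share of all Ddx39b transcripts. A further row from the same donor, of 368 nt, had a PSI of 0.564, 0.864 and 0.646 in K700E/+ and 0.908, 0.667 and 0.911 in +/+ libraries, which overlapped, and was not called (difference -0.14, adjusted p = 0.384). Without both replicate 1 libraries the second event lost its call (adjusted p = 0.0637), and with junction reads only neither could be tested.

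**Figure D4:**
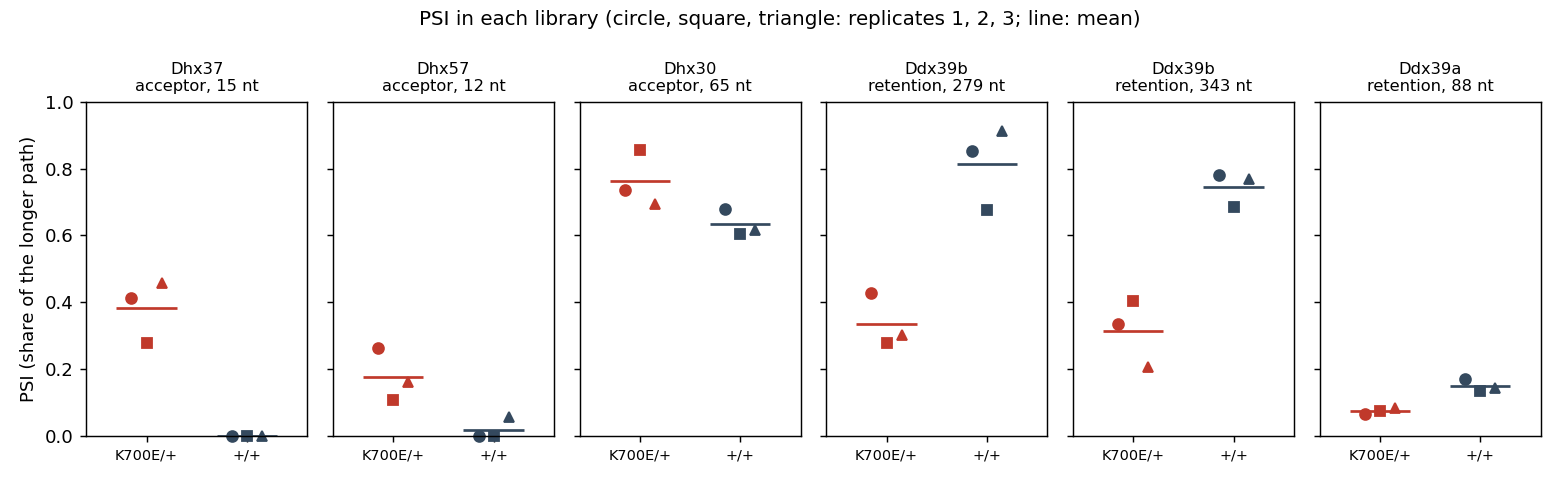
PSI of 6 helicase events in each library, with K700E/+ left of +/+, the mean as a line and 1 symbol for each replicate number. The Dhx37 acceptor was at 0 in all +/+ libraries and at 0.277 to 0.458 in K700E/+ libraries, and both Ddx39b introns were lower in K700E/+ libraries; the Dhx30 acceptor and the Ddx39a intron were not called.

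No other helicase intron was called. Introns of 113 nt in Ddx11 and of 157 nt in Ddx39a had PSI differences of -0.14 and -0.10, did not overlap between the genotypes and did not pass the test (adjusted p = 0.188 and 0.163). An 88-nt intron where Ddx39a and Adgre5 overlap had a PSI of 0.0663, 0.0744 and 0.0835 in K700E/+ and 0.172, 0.136 and 0.144 in +/+ libraries. It was lower in every K700E/+ library (adjusted p = 0.0101), but by 0.08 only. PSI did not overlap between the genotypes for 11 of the 21 helicase introns (52.4%, against 26.8% of all retained introns tested), and 14 of the 21 had a lower mean in K700E/+ cells (66.7%, against 66.8%). Of the helicases tied to SF3b, Ddx46 had its lowest p for a donor pair 3 nt apart, with PSI of 0.789, 0.796 and 0.730 in K700E/+ and 0.762, 0.831 and 0.815 in +/+ libraries (difference -0.03, adjusted p = 0.584). Ddx42 had its lowest p for a 37-nt exon, included at 0.935, 0.917 and 0.920 in K700E/+ and 0.944, 0.966 and 0.951 in +/+ libraries (difference -0.03, adjusted p = 0.254). The Ddx46 values overlapped and those of Ddx42 did not. Ddx17 used a donor pair 6 nt apart at 0.322, 0.349 and 0.315 in K700E/+ and 0.342, 0.384 and 0.337 in +/+ libraries, which overlapped (difference -0.03, adjusted p = 0.663). The rows of Dhx15 and Ddx5 could not be tested, since the first was placed at several positions and the second was an insertion.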

How the data were processed

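Poly(A) RNA of the 6 libraries at 24 h was analysed, and 6 further libraries, untreated, were not used here. STAR 2.7.9 and the build GRCm39 are named in the submitters' processing notes, and the authors deposited raw counts per gene. They also deposited reads of both paths of KisSplice events, packed with a PSI fraction. The counting tool, its use of strand and the annotation release are not given in the sources used here. Columns of the authors' own comparisons were not used. The list of megakaryocyte markers is not reported here. In R 4.3.3, counts were filtered with filterByExpr, scaled by TMM and tested with edgeR 4.0.16. Standard errors were derived from the log2 fold change and the F statistic. Exonic lengths and overlaps came from GENCODE M21 on GRCm38, matched by gene ID. PSI was recomputed from reads of 2 read files per library, and edgeR tested whether the ratio of the paths differed by genotype. Recomputed and deposited PSI correlated at 0.983 over 104610 values, with 13.0% within 0.01. The steps were tested on simulated data.

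Members, lists and roles were chosen with earlier results of these data known. Values per library are given for the 8 largest rises and falls among called helicases (6 fell), the splicing helicases, and those with a called event or a DEG. Other helicases are given by range or added after their values were seen. Deviations from the genotype means were correlated for same-numbered libraries (0.64, 0.49 and 0.48 over 8771 genes), so numbers were taken to pair the libraries, and the block was an alternative. Replicates 2 and 3 were also positively correlated across numbers (0.26 and 0.21). Replicate 1 was negatively correlated with the other numbers (-0.44 to -0.51). Library pairs within a genotype differed by a chi-square per degree of freedom of 8.07 to 35.8, so none is a copy. Alternatives changed the scaling, the filter, the test (DESeq2 1.42.0, limma 3.58.1), the coverage minimum, the thresholds, the events and the libraries.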

Additional observations from a re-analysis of the deposited data

How the results depend on the processing

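The counts of helicases called higher (15) and lower (6) stayed within 1.5 times under every change of scaling, filter, test and pairing. With the replicate number as a block, 18 were higher and 8 lower, no call was lost and 5 were gained. With library totals alone Ddx3x, Ddx20, Dhx8, Ddx27 and Ddx54 lost their calls, which left 10 higher. Leaving out 1 library gave 8 to 19 higher, 3 to 8 lower and 1 to 2 DEGs. The shares of all genes called with library totals alone or with 1 library left out were not taken. No helicase was a DEG under the filter of the study, which drops Ddx4, and 3 were at a log2 threshold of 0.58. Of the helicases followed through the alternatives, Dhx38 and Ddx17 changed sign, and those given only by a range were not followed. Dhx38 ranged from -0.087 to 0.063 over the fits without 1 library, with 0.0027 without replicate 1 of K700E/+, 0.016 without replicate 2 of K700E/+ and 0.063 without replicate 2 of +/+. Ddx17 ranged from -0.088 to 0.023, with 0.023 without replicate 3 of +/+. Events with higher PSI numbered 1 in place of 2 with 20 reads of coverage, a PSI threshold of 0.20, limma, without complex, paralog and SNP events and without both replicate 1 libraries, and 1 to 2 without 1 library. Events with lower PSI numbered 0 with junction reads only and without complex events, where the Ddx39b introns could not be fitted, 1 without both replicate 1 libraries, and 2 in all fits without 1 library. Depth limits the Dhx57 and Ddx39b events, with under 20 reads per library on their rarer path, and Ddx4, Ddx58 and Dhx58 among genes. Where both genotypes held few reads, a missed call does not show equal levels.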
